A study of Mus musculus with 272 samples.

Results

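The polyadenylated transcriptome of the mouse germinal vesicle (GV) oocyte was compared with that of the zygote, and each gene was sorted by where the metaphase II (MII) egg lay relative to these 2 ends. The members are the 4 GV and the 4 zygote transcriptome libraries, chosen by their labels, out of 32 transcriptome libraries of 8 stages and 272 libraries in all. The 4 MII transcriptome libraries place each gene, and 9 sucrose gradients (3 each of GV, MII and zygote) give a second set of libraries. A GV oocyte is the full-grown oocyte arrested in prophase of the first meiosis, an MII oocyte is the ovulated egg arrested in the second meiosis, and a zygote is the fertilized embryo before its first division. Each transcriptome was made from a pool of 20 oocytes or embryos taken from the same batch as the gradients of that stage, and each gradient from about 100. The groups carry no treatment other than the stage itself; strain, age, hours after stimulation or fertilization and the mode of fertilization are not given in the sources used here. Nothing states that the 4 pools of a stage came from separate females, so p-values measure the spread between pools, which may be technical. In the main fits that spread was taken over the libraries of all 8 stages, not only those of GV, MII and zygote. A printed SE or p-value is therefore not the scatter of the listed pools alone.

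A full-grown oocyte is close to silent in transcription, and its maturation and fertilization run on stored maternal mRNA. Much of that mRNA is kept with a short poly(A) tail. At the resumption of meiosis some messages, often those with U-rich cytoplasmic polyadenylation elements (CPE) near their 3′ end, receive a longer tail and are translated. Many others lose their tail and are degraded, through the CCR4-NOT deadenylase and its adaptor BTG4. Libraries primed on poly(A) can therefore change with tail length as well as with the number of molecules. Tail length was not measured in these libraries, so its part in any change below was not tested.

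Reads assigned to genes came to 12.8 to 14.8 M in the GV libraries, 17.6 to 22.4 M in the MII libraries and 16.7 to 20.6 M in the zygote libraries. Levels are in CPM, which scales a gene's reads to the same total in each library. Genes at 1 CPM or more numbered 11389 to 11552 in GV, 9853 to 10449 in MII and 10292 to 10430 in zygote. Of the oocyte markers, 12 of 12 were in the table, and they summed to 32014 to 34493 CPM in GV, 29371 to 37969 in MII and 19614 to 21896 in zygote. Cumulus and granulosa markers (6 of 14 in the table) summed to at most 69.8 CPM in a library, sperm markers (5 of 9) to at most 20.0, blood markers (3 of 8) to at most 0.556, and none of the 7 stroma and oviduct markers was in the table. The sperm marker sums were highest in GV (15.8 to 20.0 CPM), against 3.06 to 4.29 in MII and 5.45 to 10.6 in zygote. CPM is a share of the library, so a lower CPM is a smaller share, and a change in total RNA per cell or per pool is not seen.

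Between GV and zygote the transcriptome shifted mainly downward on the CPM scale. Of 14642 genes tested with limma on log2(CPM + 1), 3429 were lower in the zygote (23.4%) and 888 were higher (6.06%), at a Benjamini-Hochberg adjusted p under 0.05 and a change of at least 1 on the log2 scale. The median change over all genes was -0.19. The direction split depended on the scaling: 79.4% of the called genes were lower in CPM, 62.4% with edgeR and 56.7% with DESeq2 on the recovered reads, 55.4% with TMM scaling, 50.2% with quantile normalization and 35.2% with the library medians set equal (median centring), which moved the median of all genes to 0.52. Changes below are on the CPM scale, and a gene or list is named with its exception where a scaling takes the call away or turns its sign. A further 1156 genes passed the adjusted p with a change of 0.8 to 1 and were left uncalled, while 943 called genes changed by 1 to 1.2.

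MII lay between the ends for 1834 of the 4317 called genes (42.5%). Among the 3429 falls, 1163 had MII between GV and zygote (7.94% of genes tested), 2178 had MII below both (14.9%) and 88 had MII above both (0.601%). Among the 888 rises, 671 had MII between (4.58%), 197 had MII above both (1.35%) and 20 had MII below both (0.137%). Another 221 genes were not called between the ends but fell into MII and rose out of it (1.51%, transient dips), and 205 did the reverse (1.4%, transient peaks). The share of falls with MII below both ranged from 59.3% to 69.0% over the alternatives run, scalings included. The places of the rises depended on the scaling: MII lay between for 75.6% of rises in CPM, 63.4% with edgeR, 57.2% with DESeq2, 58.9% with quantile normalization, 55.0% with TMM scaling and 46.0% with median centring, while the share with MII above both went from 22.2% in CPM to 43.5% with TMM scaling and 53.2% with median centring.

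The place of the MII mean alone does not tell whether MII stood apart from the zygote, so the second step was also tested. A step that did not pass is not shown to be absent. For 2007 of the 3429 falls (58.5%) the MII and zygote libraries were not separated (adjusted p of at least 0.05 in the same limma fit), 1012 (29.5%) rose after MII and 410 (12%) fell further at that adjusted p. With a change of at least 1 also asked of this step, 513 rose and 218 fell, where 5.79% of all genes tested rose from MII to zygote and 4.48% fell. From GV to MII, 25.3% of all genes fell and 9.11% rose. Among the 888 rises, 652 were not separated after MII, 229 rose further and 7 fell. The GV to MII and MII to zygote steps share the MII libraries, so noise in MII moves them in opposite directions. A contrast of the 2 steps differed from 0 in 7025 genes (48% of those tested). Among the 1163 falls with MII between, it found the first step larger in 530 and the second larger in 44. Among the 671 rises with MII between, the numbers were 223 and 11.

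**Figure D1:**
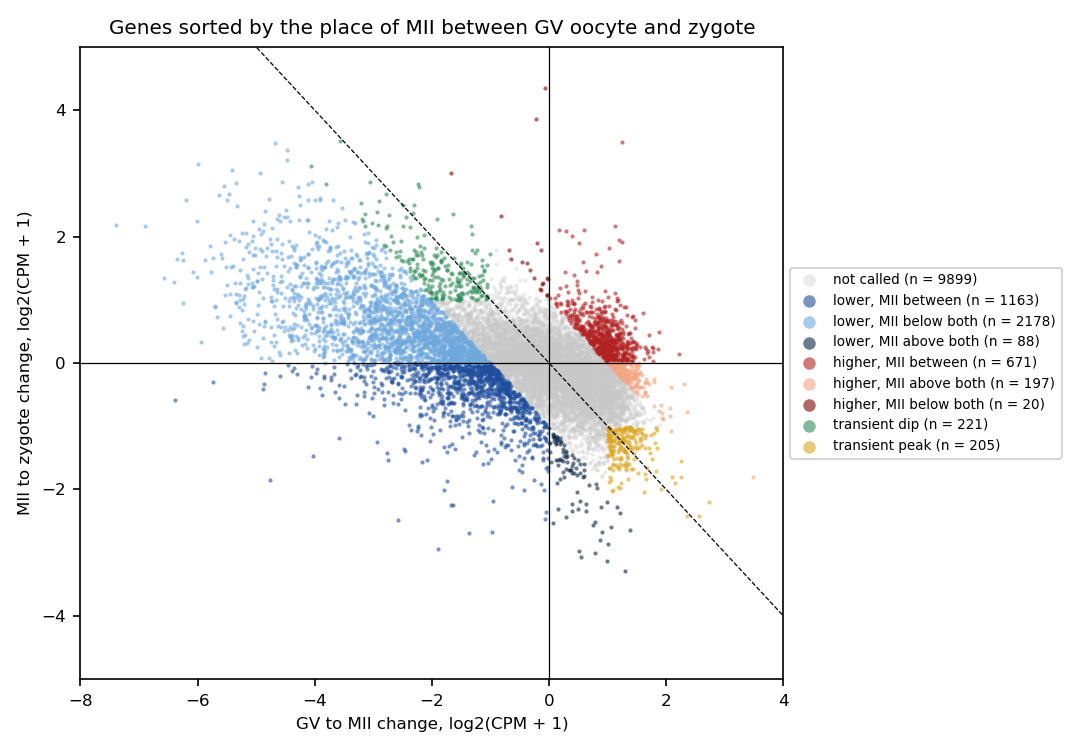
Change from GV to MII (horizontal) against change from MII to zygote (vertical) on the log2(CPM + 1) scale, 1 point a gene of 14642 tested, coloured by class; on the dashed line the second step undoes the first. Falls with MII below both (2178 genes) fill the upper left under the dashed line, the 221 dips lie near that line, and the 88 falls with MII above both lie at the lower right.

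Because tail control in oocytes is read from the 3′ end, windows near the end of chosen transcripts are shown, picked to let the motif and its absence be seen; the shares over all genes of a class follow them. Sequences are GENCODE M21 transcripts (build GRCm38), matched to genes by symbol, so no coordinates on the authors' build (GRCm39) are given. Each window is 30 bases of the transcript strand, 5′ to 3′, and capitals mark TTTTAT or TTTTAAT, the core CPE letters, and AATAAA, the canonical polyadenylation hexamer. From rises with MII between came Cnot7 (a CCR4-NOT deadenylase subunit), Orc6 (origin recognition) and Btg4. From falls with MII above both came Gdf9 (an oocyte growth factor), Dnmt1 (maintenance DNA methylation) and Plat (tissue plasminogen activator).
Cnot7: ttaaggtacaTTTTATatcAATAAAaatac
Orc6: aaaTTTTATttcactaaatgttatatagcc
Btg4: cctTTTTATgtctttttaaaagtttgattt
Gdf9: tggTTTTATgtgacggaagAATAAActgtt
Dnmt1: tagTTTTATatgttgtaatatttcttcaaa
Plat: ataTTTTAATctattttagtttttactttg
Rbm38 (an RNA-binding protein) and Gnai2 (an inhibitory G protein subunit) are transient peaks, and their windows start 58 and 62 bases from the end.
Rbm38: tatTTTTATtagaatgttctgattataaaa
Gnai2: atgTTTTATggaattgttcacatgatttga
For falls with MII below both (Rps13, a small ribosomal subunit protein, and Psmb7, a catalytic proteasome subunit) and for dips (Cript, a cysteine-rich PDZ-binding protein, Nsdhl, a sterol dehydrogenase, and Apoo, a mitochondrial contact site protein) the last 30 bases are shown, since their 3′ UTRs held neither CPE core within 150 bases of the end. The 3′ UTRs of Rps13 and Psmb7 are only 45 and 141 bases long, so both genes are outside the counts of 3′ UTRs of at least 150 bases below.
Rps13: caagcAATAAAatcactttgagtaacttgg
Psmb7: aAATAAAtaAATAAAaagacaaaaaactta
Cript: actccctcagaAATAAAgcaagcaccctgg
Nsdhl: tgggggaaaataacaaagaAATAAAagcca
Apoo: gtacataattaaactccagattccaacaaa

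The letters of the 3′ end were counted by class. A CPE core lay in the last 150 bases of 24.8% of the 11447 genes with a 3′ UTR of at least 150 bases. The share was 16.1% (95% Wilson interval 13.8 to 18.7) in 887 falls with MII between and 12.6% (11 to 14.3) in 1558 falls with MII below both. It was 40.3% (30.0 to 51.4) in 77 falls with MII above both, 42.1% (38.2 to 46.2) in 572 rises with MII between, 46.4% (39.2 to 53.7) in 179 rises with MII above both, 18.1% (13.0 to 24.6) in 166 dips and 41.5% (34.6 to 48.8) in 183 peaks. Of the 11 rises with MII below both, 2 held it (18.2%, 5.14 to 47.7). The intervals of the falls with MII between or below both and of the dips ended below the share of all genes, and those of the falls with MII above both, the peaks and the 2 larger classes of rises began above it. In the longest 3′ UTRs (2000 bases or more) the 32 dips stood the other way, at 34.4% against 28.0% of all such genes. Genes are not independent replicates, so no test was made, and the intervals cover counting error only.

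Other features of the transcripts were set beside the same classes. Median 3′ UTR length was 420 bases in falls with MII below both, 547 in falls with MII between, 1339 in rises with MII between and 1612 in rises with MII above both, against 885 in all genes. Among genes with 3′ UTRs of 150 to 500 bases only, the motif shares were 11.4%, 13.2%, 54.8% and 50.0% in the same order, against 22% of all such genes. The GC content of the transcript had medians of 52.6 to 53.0% in the 3 classes of falls and 43.7 to 44.9% in the 2 larger classes of rises, against 50.4% in all genes. AATAAA lay in the last 40 bases of 50.2% of falls with MII between, 51.3% of falls with MII below both, 68.1% of dips and 73.8% of peaks, against 61.3% of all. The letters can overlap, as TTTTAAT may run into AATAAA, and a match is a match of letters, not a tested site.

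**Figure D2:**
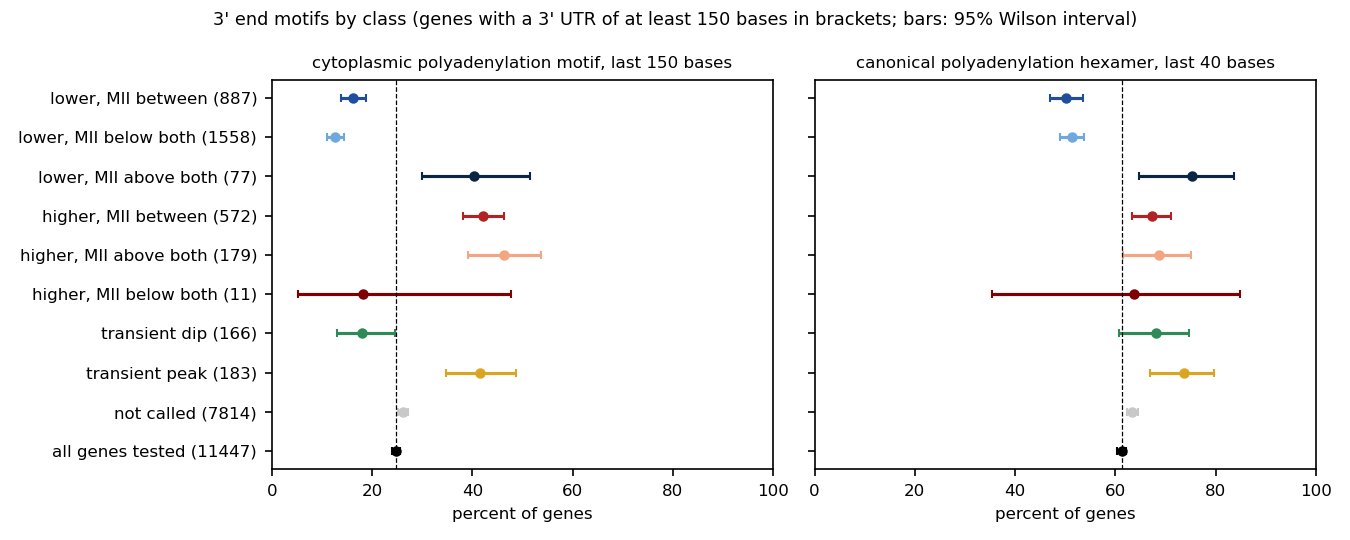
Percent of genes in each class with a CPE core (TTTTAT or TTTTAAT) in the last 150 bases (left) and with the hexamer AATAAA in the last 40 (right), with 95% Wilson intervals and the share in all genes as a dashed line. In the left panel falls into MII and dips sit at 12.6 to 18.1%, falls with MII above both, the 2 larger classes of rises and peaks at 40.3 to 46.4%, and the 11 rises with MII below both at 18.2% with the widest interval.

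The lasting falls, with MII between, included among their largest Upp1, Il20ra, Rpsa, Cox7c, Rps19, Zp2, Uqcr11 and Rpl18, 8 genes that kept the call and the class in all alternatives that tested them. Over all 1163 genes of the class the median step was -1.21 into MII and -0.36 after it. Zp2, whose product forms the zona pellucida and is cleaved at fertilization, was at 4123, 4699, 4643 and 4833 CPM in the GV libraries A to D, at 1051, 1572, 327 and 638 in MII and at 139, 129, 140 and 139 in zygote. The 3 groups did not overlap, and MII was the most uneven of them.
The fall from GV to zygote was -5.05 ± 0.33 (SE) on the log2(CPM + 1) scale, with steps of -2.57 and -2.48 (limma, adjusted p = 2.6e-15 for the whole). The other zona genes of the list, Zp1 and Zp3, fell by 4.05 and 4.19 and also had MII between.

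Uqcr11, a subunit of respiratory complex III, was at 172, 144, 168 and 142 CPM in GV, 59.3, 63.3, 24.9 and 31.0 in MII and 4.19, 4.27, 4.67 and 4.83 in zygote. Its later step (-2.95) was larger in size than its earlier one (-1.89), and the difference of the steps passed (limma, adjusted p = 0.017). Upp1, a uridine phosphorylase, had nearly all of its fall before MII: 260, 300, 287 and 248 CPM in GV, 2.54, 3.01, 1.97 and 1.69 in MII, and 1.43, 0.616, 1.63 and 1.17 in zygote. Its MII and zygote libraries were not separated (limma, adjusted p = 0.090).

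Il20ra, an interleukin receptor subunit, had no read in any zygote library and 28.8, 95.1, 51.7 and 118 CPM in GV. Against a floor of 3 reads over the zygote group (0.0392 CPM) its GV mean of 73.5 CPM was at least 1875-fold higher. Its GV level was uneven between pools.
Rps19, Rpsa and Rpl18, proteins of the cytosolic ribosome, went from GV means of 51.3 to 92.6 CPM to zygote means of 0.431 to 2.40 CPM, with most of the fall before MII. Reads of ribosomal protein genes can be split with processed pseudogenes, so their levels are uncertain.

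Falls with MII below both made up the largest class of falls. Their medians were -1.84 from GV to zygote, -2.55 into MII and 0.53 after it. In the 513 genes whose rise after MII was itself called, a median of 40.6% of the first step was undone on the log2 scale (10th to 90th percentile 27.0 to 55.4%), and in the other 1665 genes 16.5%. The genes were split by that same rise, so the gap between the 2 shares was in large part required by the sorting. Led by size, the genes with a called rise were Ppil3, Cpsf4l, Rps13, Fcf1, Rps27a, Emg1, Smim20 and Psmb7, which kept their class in all alternatives that tested them.

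Cpsf4l, a relative of the CPSF4 subunit that binds the polyadenylation hexamer, was at 2015, 2156, 1942 and 1955 CPM in GV, 13.1, 12.4, 9.19 and 9.88 in MII and 49.6, 53.8, 70.7 and 44.8 in zygote. All zygote pools were above all MII pools and far below all GV pools. The change was -5.20 ± 0.24 (SE) from GV to zygote, with -7.39 into MII and 2.19 after it (limma, adjusted p = 5.3e-09 for the later rise). Psmb7 showed the same order: 182, 150, 172 and 165 CPM in GV, 1.05, 1.39, 0.750 and 1.58 in MII, and 6.80, 7.78, 6.31 and 4.61 in zygote.

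Zar1l, a relative of the mRNA-storing protein ZAR1, was at 879, 828, 878 and 768 CPM in GV, 31.5, 40.6, 18 and 28.7 in MII and 94.7, 97.3, 111 and 113 in zygote. The MII pools were again the lowest without overlap, and the later rise was 1.82. Fcf1 and Emg1, both factors of small-subunit rRNA processing, fell by 4.74 and 4.65 from GV to zygote and rose by 2.16 and 1.36 after MII. Rps13, whose end is printed above, was at 324, 274, 301 and 268 CPM in GV, 3.64, 2.73, 2.35 and 1.43 in MII and 8.72, 6.54, 7.30 and 6.95 in zygote.

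The 88 falls with MII above both fell only after MII, by the definition of the class, with medians of 0.35 into MII and -1.68 after it. They were not the only late falls: among the falls with MII between, 85 had only the step after MII called. Mos, the kinase that holds the egg in metaphase arrest, was at 1215, 1234, 1195 and 1209 CPM in GV, 2126, 1694, 1616 and 1527 in MII and 281, 203, 157 and 256 in zygote. Every MII pool was above every GV pool, although that step was not called (0.51, limma, adjusted p = 0.16), and the zygote pools lay apart below. The change after MII was -2.97 and the change from GV to zygote -2.47 ± 0.30 (SE, limma, adjusted p = 1.4e-08).

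Plat was at 1556, 1874, 1500 and 2015 CPM in GV, 2078, 1964, 1793 and 1476 in MII, and 284, 367, 235 and 399 in zygote. Its GV and MII pools overlapped, and only the zygote pools stood apart. Astl, which encodes ovastacin, the cortical granule protease that cleaves ZP2, rose into MII first: 172, 231, 203 and 234 CPM in GV, 642, 479, 533 and 420 in MII, and 45.1, 72.7, 39.0 and 54.0 in zygote. Gdf9 was at 5191, 6181, 5557 and 5735 CPM in GV, 9445, 6559, 8023 and 6827 in MII, and 1952, 2434, 2019 and 2803 in zygote. Its call between the ends (-1.31), and that of Dnmt1 (-1.35), did not pass under TMM scaling, edgeR, DESeq2 or median centring. Aurkb, the kinase of the chromosomal passenger complex, fell by 1.76 with MII at or above GV (means of 30.2, 33.6 and 8.43 CPM).

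Rises with MII between were led by Pik3ap1, by ND1, CYTB, ND2, ND4, ND5, ND6 and COX2 of the mitochondrial genome, and by Mrm3 and Olfr1300-ps1. ND1, a complex I subunit, was at 256, 224, 282 and 220 CPM in GV, 318, 579, 604 and 726 in MII and 2352, 1631, 3177 and 2764 in zygote. The groups did not overlap, and the larger step followed MII (2.17, against 1.12 before it, limma, adjusted p = 0.041 for the difference). All 13 mitochondrially encoded mRNAs of the list were higher in the zygote with MII between, with a median of 2.42 (2.42 to 3.32 over the scalings). Nuclear copies of mitochondrial sequence share reads with them, so their levels are uncertain.

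Pik3ap1, an adaptor of phosphoinositide 3-kinase, was close to absent in GV (0, 0.145, 0.151 and 0 CPM), uneven in MII (4.69, 0.334, 4.46 and 0) and at 24.8, 21.9, 24.2 and 43.7 in zygote. Mrm3 (a methyltransferase of mitochondrial rRNA) rose by 2.42 and Olfr1300-ps1 (an olfactory receptor pseudogene) by 2.40.

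Nuclear-encoded rises with a larger step before MII included Orc6 and Gmnn. Orc6, printed above with its CPE core, was at 438, 386, 426 and 377 CPM in GV, 948, 1031, 1160 and 1092 in MII and 1521, 1275, 1489 and 1601 in zygote. Its 3 groups did not overlap, and its steps were 1.38 and 0.48 (limma, adjusted p = 6.7e-12 and 3.4e-03). Gmnn, geminin, which restrains replication licensing, was at 128, 111, 124 and 121 CPM in GV, 408, 440, 505 and 431 in MII, and 718, 551, 715 and 532 in zygote. It rose by 2.36 ± 0.14 (SE).

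Rises with a called fall after MII were few in CPM, in part through the sorting. A gene that fell back far enough lost the call between the ends and was counted as a peak or left uncalled. Of the 197 rises with MII above both, the fall after MII was called for 2 genes, and Agbl2, a tubulin carboxypeptidase, was the 1 of them that met the rule for naming. It was at 15.9, 20.6, 15.1 and 28.3 CPM in GV, 75.1, 103, 67.2 and 99.9 in MII and 32.8, 37.9, 48.6 and 41.8 in zygote, and its change of 1.01 lost the call in 6 of 26 alternatives: pseudocounts of 0.1 and 5 CPM and without GV A, GV C, zygote C or zygote D. Among the 20 rises with MII below both, Hormad1, a meiotic chromosome axis protein, rose after MII alone: 2.37, 2.04, 2.58 and 1.05 CPM in GV, 1.40, 2.12, 2.2 and 1.58 in MII, and 49.8, 61.5, 56.4 and 58.5 in zygote. GV and MII overlapped, so its place on either side of GV moved in 7 of 26 alternatives while the call (4.29) did not.

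Transient dips were sorted as genes with both steps called and the ends not called apart, so a large return was required of them. In the 221 genes a median of 78.0% of the fall into MII was undone by the zygote (10th to 90th percentile 59.9 to 108%), with medians of -1.86 and 1.41 for the steps. Nsdhl was at 119, 137, 142 and 149 CPM in GV, 10.6, 12, 8.21 and 11.8 in MII and 136, 138, 142 and 112 in zygote. GV and zygote overlapped (-0.05 ± 0.33, SE), and every MII pool lay far below both.
Cript was at 335, 265, 303 and 266 CPM in GV, 36.4, 46.2, 36.7 and 48.3 in MII and 261, 254, 325 and 247 in zygote, again with overlapping ends. Fth1, the ferritin heavy chain, was at 192, 164, 165 and 172 CPM in GV, 9.86, 10.0, 9.85 and 8.03 in MII and 91.4, 78.6, 83.0 and 107 in zygote. Its zygote pools did not reach the GV pools: the change of -0.94 passed the adjusted p (limma, 3.5e-05) but not the minimum change, and without zygote library D it was called lower, not a dip.

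The other dips named by size were Sec22a (vesicle traffic), Mrpl48 (mitochondrial ribosome), Apoo, Slc10a4-ps (a pseudogene), Cenpx (a centromere and DNA repair protein), Anxa5 (annexin) and Slco1a5 (an organic anion transporter). Their MII means were 3.52 to 59.3 CPM, with zygote means of 24.8 to 435 CPM. Mrpl48 left the class under quantile normalization, without GV B and without zygote C, where its change of -0.96 passed -1. From the lists, Birc5 (survivin, of the chromosomal passenger complex) had means of 1260, 224 and 695 CPM in GV, MII and zygote, and Eif2s1 (eIF2 alpha) 269, 46.2 and 144 CPM.

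Transient peaks were the mirror image, with medians of 1.25 and -1.25 for the steps. Their return, a median of 102% of the first step, was again in large part required by the sorting. Gnai2 was at 42.4, 47.4, 37.9 and 29.9 CPM in GV, 230, 152, 177 and 131 in MII and 43.4, 67.2, 40.5 and 43.5 in zygote. Its ends overlapped and all MII pools were higher. Rbm38 was at 71.3, 73.3, 92.6 and 90.8 CPM in GV, 298, 135, 651 and 268 in MII and 112, 213, 46.5 and 52.6 in zygote, so the lowest MII pool was below the highest zygote pool, and the class was lost with DESeq2 and with a pseudocount of 0.1 CPM. Zbed3, a subcortical maternal complex gene, was at 6547, 7396, 6816 and 7601 CPM in GV, 24534, 15812, 22310 and 18797 in MII and 9691, 13986, 6351 and 8367 in zygote.

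The other peaks named by size were Kcng2 (a potassium channel subunit), Shmt1 (serine hydroxymethyltransferase), Grb7 (an adaptor), Tmem150a, Mapre3 (a microtubule end-binding protein), Ccnd3 (cyclin D3), Dtx2 (a ubiquitin ligase) and Prkab1 (an AMPK subunit). Their MII means were 11 to 220 CPM. Shmt1 lost the class under edgeR, DESeq2, median centring and quantile normalization. Upf1, the helicase of nonsense-mediated decay, peaked at 64.3, 43.9, 27.8 and 42.9 CPM in MII, against 13.6 to 19.5 in GV and 9.92 to 16.8 in zygote.

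**Figure D3:**
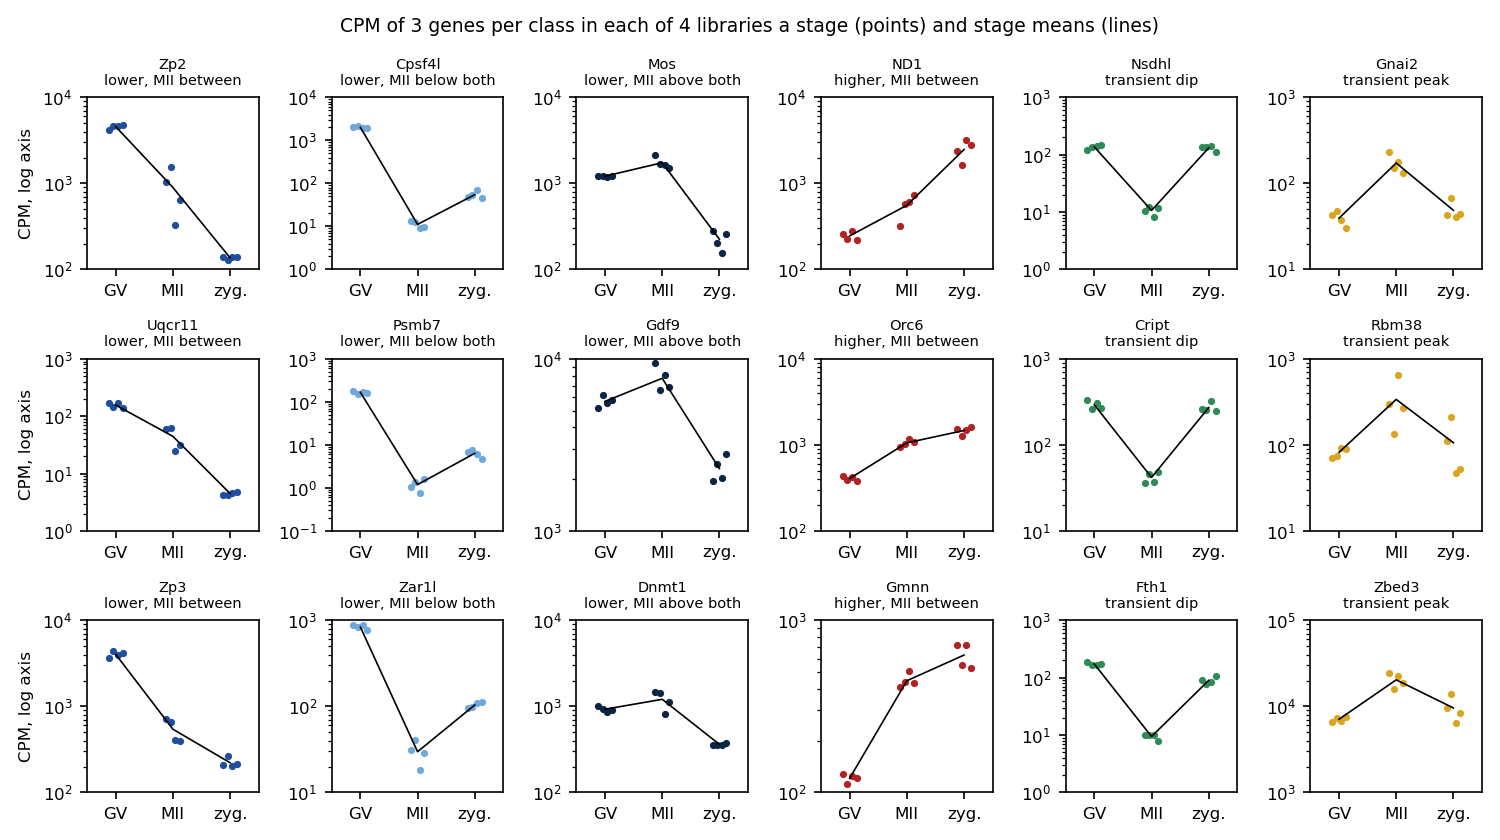
CPM on a log axis in each of the 4 libraries of GV, MII and zygote (points) and the stage means (lines), for 3 genes of each of 6 classes. Zp2, Uqcr11 and Zp3 step down at each stage, Cpsf4l, Psmb7 and Zar1l are lowest at MII, Mos, Gdf9 and Dnmt1 drop only after MII, and Nsdhl and Gnai2 return to overlapping ends.

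Genes were then read by role, beside the -0.19 median of all genes and the shares called over all genes, 23.4% lower and 6.06% higher. The scalings moved all genes as well as the lists. Over all genes 2561 were lower and 2064 higher with TMM scaling, 2169 and 2156 with quantile normalization and 1775 and 3265 with median centring. With edgeR the counts were 3321 and 1999, and with DESeq2 3169 and 2416. Values over the scalings are those in CPM, with TMM scaling, quantile normalization and median centring, with edgeR and with DESeq2. CPM without ribosomal RNA, ribosomal protein and mitochondrially encoded genes was also used. That setting does not cover the ribosomal protein and mitochondrially encoded lists themselves. Among maturation-activated messages, known for their translation during meiosis, 7 of 15 rose with MII between (Orc6, Btg4, Cnot7, Cnot6l, Dcp2, Dazl and 1 other), 2 fell with MII above both (Mos and Plat) and 6 were not called, with a median of 0.95 (0.88 to 1.65 over the scalings, with 2 lower and 6 to 10 higher). The rise of Dazl did not pass under quantile normalization. Ccnb1, cyclin B1, was among those not called: 3461, 3856, 3727 and 4151 CPM in GV, 6400, 7954, 9324 and 8289 in MII and 5911, 6438, 5859 and 6140 in zygote. Its zygote pools were all above its GV pools, with a change of 0.68, and it was called higher under TMM scaling, edgeR, DESeq2 and median centring.

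Of the deadenylation and decay machinery, 9 of 29 were higher and 3 lower in the zygote, where 6.06% of all genes were higher and 23.4% lower (9 to 14 and 2 to 3 over the scalings), with a median of 0.29 (0.29 to 1.00 over the scalings) and none below both at MII. The rises included Btg4, at 6627, 6376, 6953 and 6593 CPM in GV, 10018, 11788, 11601 and 11245 in MII and 14537, 13424, 14422 and 14367 in zygote. Its groups did not overlap. Cnot7 went from a mean of 792 to 2037 CPM, Pan3, of the PAN2-PAN3 deadenylase, from 40.2 to 133 CPM, and Pan2 rose by 1.14 with MII above both. The falls were Cnot10 (-2.39), Pabpn1l (-1.95), the poly(A)-binding partner of BTG4, and Cnot1 (-1.30), the CCR4-NOT scaffold, whose call did not pass under TMM scaling, quantile normalization, median centring, edgeR or DESeq2.

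Of the cytoplasmic polyadenylation machinery, 8 of 19 were lower and 3 higher, where 23.4% of all genes were lower and 6.06% higher. The split turned with the scaling, to 5 and 5 with TMM scaling and quantile normalization, 6 and 6 with edgeR and DESeq2 and 2 lower and 8 higher with median centring. Cpeb1, which binds the CPE, was at 334, 361, 292 and 346 CPM in GV, 236, 229, 198 and 206 in MII and 84.3, 127, 91.7 and 111 in zygote, 3 groups without overlap, and its fall (-1.69) did not pass under median centring. Cpeb4, its relative, rose from 10.4, 9.53, 11.2 and 11.1 CPM in GV to 36.0, 41.6, 27.5 and 44.4 in MII and 51.2, 35.1, 68.9 and 52.0 in zygote, with GV apart and the later stages overlapping. Among the poly(A) polymerases, Tent2 rose by 1.28 while Tent5b and Tent5c fell by 1.68 and 1.66, and neither fall passed under median centring. The hexamer-binding complex genes Cpsf3 and Cpsf4 fell by 1.23 and 2.97 with MII below both, and the call of Cpsf3 did not pass under TMM scaling, quantile normalization, median centring, edgeR or DESeq2. The median of the list was -0.60 and turned to 0.10 under median centring. Of the mRNA storage and RNA-binding list, 6 of 24 were lower, among them Zar1l and Ybx2 (-2.03), a Y-box protein of stored mRNA, and 4 higher, with a median of 0.05 (0.05 to 0.76 over the scalings). That share lower is near the 23.4% of all genes, and more were higher than lower under TMM scaling, quantile normalization, median centring, edgeR and DESeq2 (2 to 3 lower and 7 to 9 higher).

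Most ribosomal protein genes were lower. Of 79 cytosolic ribosomal protein genes 68 were lower, 52 of them with MII below both and 16 with MII between, and 11 were not called, with a median of -2.87. Of all genes tested 23.4% were lower. Over the scalings 60 to 68 were lower and the median stayed from -2.87 to -2.17. Of 47 initiation and poly(A)-binding genes 20 were lower and 8 higher (median -0.73, up to -0.02 under median centring), with 16 lower and 13 higher under TMM scaling and 15 lower and 16 higher under median centring. Eif3g fell by 4.63 and Paip2, a partner of poly(A)-binding protein, by 3.85, both with MII below both, whereas Eif4g2, an eIF4G relative, rose by 1.80.

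Nuclear-encoded oxidative phosphorylation genes moved against the mitochondrially encoded ones. Of 76, 64 were lower, 44 with MII below both and 20 with MII between, 3 were dips and 2 were higher, with a median of -2.42 (-2.42 to -1.72 over the scalings, with 53 to 64 lower). Of 37 proteasome subunits 20 were lower, 16 with MII below both, where 23.4% and 14.9% of all genes were (18 to 20 lower over the scalings), with a median of -1.47 (-1.48 to -0.77 over the scalings), and the proteasome activator Psme4 was higher (1.53).

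Oocyte products were mixed. Of 15 oocyte growth and transcription factors 5 were lower and 2 higher (median -0.33, -0.50 to 0.37 over the scalings), where 23.4% of all genes were lower and 6.06% higher. The split turned to 3 lower and 5 higher with TMM scaling, edgeR and median centring and to 2 and 5 with DESeq2. Figla, a transcription factor of zona genes, was at 48.7, 42.6, 45.8 and 37.2 CPM in GV, 1.58, 1.23, 0.938 and 1.27 in MII and 0.591, 1.14, 1.34 and 0.945 in zygote. Its MII and zygote pools overlapped. Of the 15 zona, fertilization and egg activation genes 6 were lower, also under each scaling, and 1 higher (1 to 4 over the scalings; median -0.58, 0.12 under median centring); Cd9, the egg tetraspanin needed for sperm fusion, fell by 3.25. Of 16 subcortical maternal complex and Nlrp genes 6 fell with MII between, none rose, and 8 were not called (median -0.13, -0.22 to 0.58 over the scalings, with 4 to 6 lower and 0 to 2 higher). They were led by Khdc3 (-4.28), Tle6 (-3.32) and Padi6 (-2.65), and Nlrp5 fell by 1.78 with steps of -0.29 before MII and -1.48 after it, a difference that did not pass (limma, adjusted p = 0.056).

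The remaining lists had most of their genes uncalled in CPM, and their shares called lower were below the 23.4% of all genes. In M-phase and anaphase control 11 of 48 were lower and 3 higher: Cdk1 fell by 2.44 with MII below both, while Pttg1, securin, rose by 1.58. In DNA replication 8 of 38 were lower, led by Tyms (-4.01), a thymidylate synthase, and 5 higher, Gmnn, Orc6 and Pcna among them. In DNA methylation and reprogramming 2 of 22 were lower (Dnmt1 and Dnmt3l) and 1 higher, in meiotic chromosome genes 4 of 20 were lower and 3 higher, and in genome activation and 2-cell transcripts 5 of 28 were lower and 1 higher. In each of the 5 more genes were higher than lower under median centring, as over all genes (3265 higher and 1775 lower). The counts were 16 against 6 in M-phase control, 11 against 5 in replication and 9 against 1 in methylation. They were 9 against 1 in meiotic chromosome genes and 4 against 2 in genome activation. With TMM scaling the M-phase split was 6 lower and 13 higher and the meiotic one 1 and 6, where 2561 of all genes were lower and 2064 higher. The medians of these 5 lists ran from -0.35 to 0.20. Those below 0 turned positive under median centring, as did the median of all genes (0.52).

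**Figure D4:**
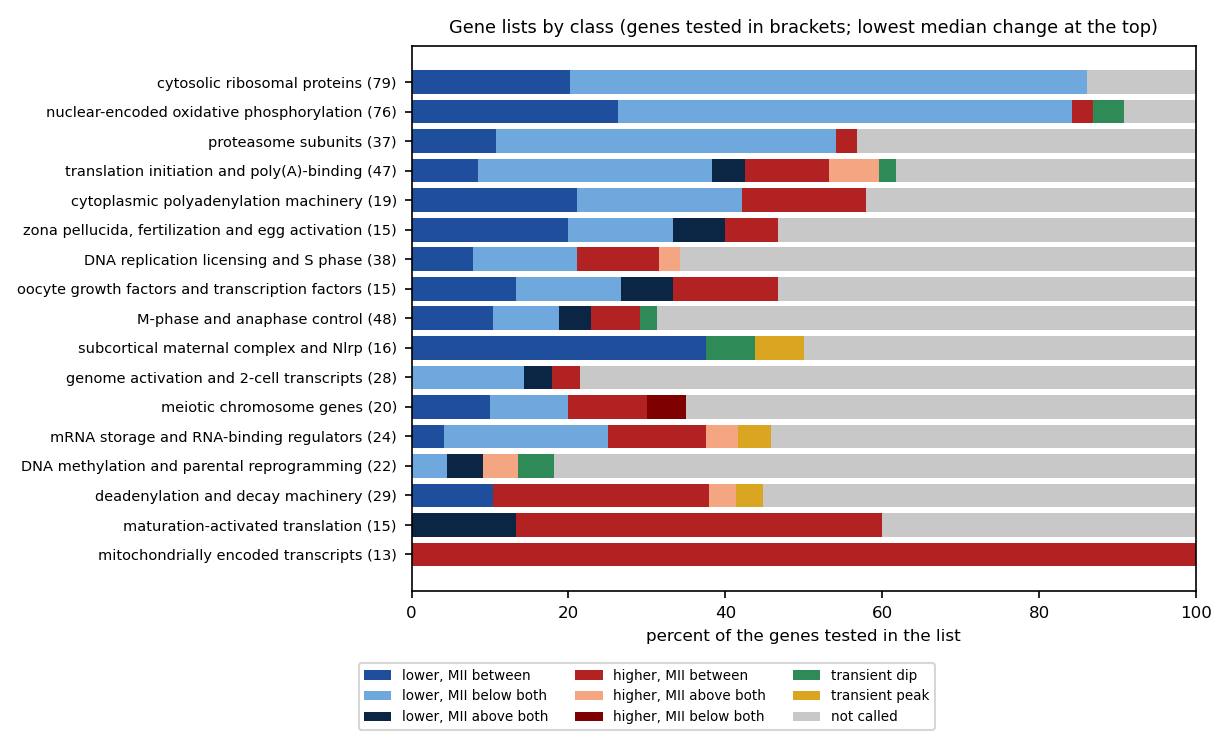
Percent of the tested genes of each of 17 lists (genes tested in brackets) in each class, ordered with the lowest median change at the top. The ribosomal protein, oxidative phosphorylation and proteasome bars are mostly falls, and the mitochondrially encoded bar is wholly rises with MII between.

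The gradients gave a second reading in other libraries, as the mean CPM over fractions 2 to 10 of each gradient. Between GV and zygote, 592 of 14730 genes were lower (4.02%) and 227 higher (1.54%), with 3 gradients a stage. Of the 2167 falls with MII below both that were measured there, 300 were lower and 16 higher from GV to zygote, and their medians were -1.22 into MII and 0.52 after it. Into MII, 643 of these 2167 were lower and 17 higher in the gradients, where 6.36% of all genes were lower and 2.54% higher. After MII, 210 were higher and 26 lower, where 2.46% of all genes were higher and 1.33% lower. Of 1153 falls with MII between, 153 were lower and 19 higher, with medians of -0.54 and -0.18. The 220 dips had medians of -0.58 and 0.74 and the 203 peaks 0.45 and -0.44, each with the sign of the transcriptome step and smaller. Without GV gradient C 538 genes were called, in place of 819, and with the 9 gradients fitted alone 2503.

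Few rises were called there. Of 661 rises with MII between, 14 were higher (2.12%) and 12 lower (1.82%), near or below the shares of all genes. Their median was 0.40 (25th to 75th percentile -0.03 to 0.82), against -0.03 over all genes, and 0.57 in the heavy fractions, against -0.07. The heavy fractions 6 to 10, where ribosome-bound transcripts lie by convention, had 319 genes lower (2.2%) and 63 higher (0.434%) of 14524. They are part of fractions 2 to 10, so shared signs are not a separate reading. For the falls with MII between or below both, the medians of both steps kept the signs of fractions 2 to 10. The dips, the peaks and the rises with MII between did so too. In fractions 2 to 5 those signs held for all of these classes but the rises with MII between. Their medians there were 0.03 into MII, -0.31 after it and -0.20 from GV to zygote, with 38 lower and 11 higher of 654. The 382 calls of the heavy fractions came to 209 without GV gradient A, 236 without B and 212 without C, and to 1416 with the 9 gradients fitted alone. Each fraction is scaled to its own total, so these values are not amounts.

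Some genes went the same way in both readings. Fth1 dipped in the gradients too, at 378, 405 and 323 CPM in GV, 85.2, 47.3 and 94.9 in MII and 568, 537 and 449 in zygote. Gnai2 peaked in both, at 99.0, 73.0 and 134 CPM in the GV gradients, 1056, 1134 and 902 in MII and 377, 494 and 333 in zygote, and Upp1 fell in both (-6.77 in the gradients). Of the 79 ribosomal protein genes 55 were lower and 1 higher in the gradients. Their medians there were -1.19 into MII and -0.65 after it, whereas their transcriptome median after MII was 0.42. The nuclear-encoded oxidative phosphorylation genes (28 of 76 lower, 3 higher) also had a negative gradient median after MII, -0.26, against 0.52 in the transcriptomes. For the proteasome subunits (9 of 37 lower, 0 higher) it was -0.44 against 0.21.

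Other genes went opposite ways. Ooep, a protein of the subcortical maternal complex, dipped in the transcriptomes (means of 2815, 1230 and 2685 CPM), a class that 5 other scalings and the set without MII C did not give, and rose in the gradients, from 1452, 1441 and 1490 CPM in GV to 17617, 12253 and 14096 in MII and 8609, 9361 and 6166 in zygote. Tent5b fell in the transcriptomes and rose by 2.16 in the gradients, from a mean of 2376 CPM in GV to 11139 in MII and 10517 in zygote. Npm2, nucleoplasmin, fell by 1.35 in the transcriptomes (a call not made under TMM scaling, edgeR, DESeq2 or median centring) and rose by 1.47 in the gradients. Oosp3, an oocyte-secreted protein, rose by 1.33 in the transcriptomes (not called under quantile normalization) and fell by 2.03 in the gradients. Cox7c fell by 4.89 from GV to MII in the transcriptomes and rose by 1.66 in the gradients. Of the 15 maturation-activated messages 3 were lower and 0 higher in the gradients, where 4.02% of all genes were lower and 1.54% higher. Their gradient medians were -0.44 into MII and 0.03 from GV to zygote, against 1.06 and 0.95 in the transcriptomes. Of the 29 deadenylation and decay genes 1 was lower and 0 higher, with a median of -0.10 against 0.29. Of the 19 polyadenylation machinery genes 1 was lower and 2 higher, with a median of 0.28 against -0.60. The difference between the 2 kinds of library was not tested.

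**Figure D5:**
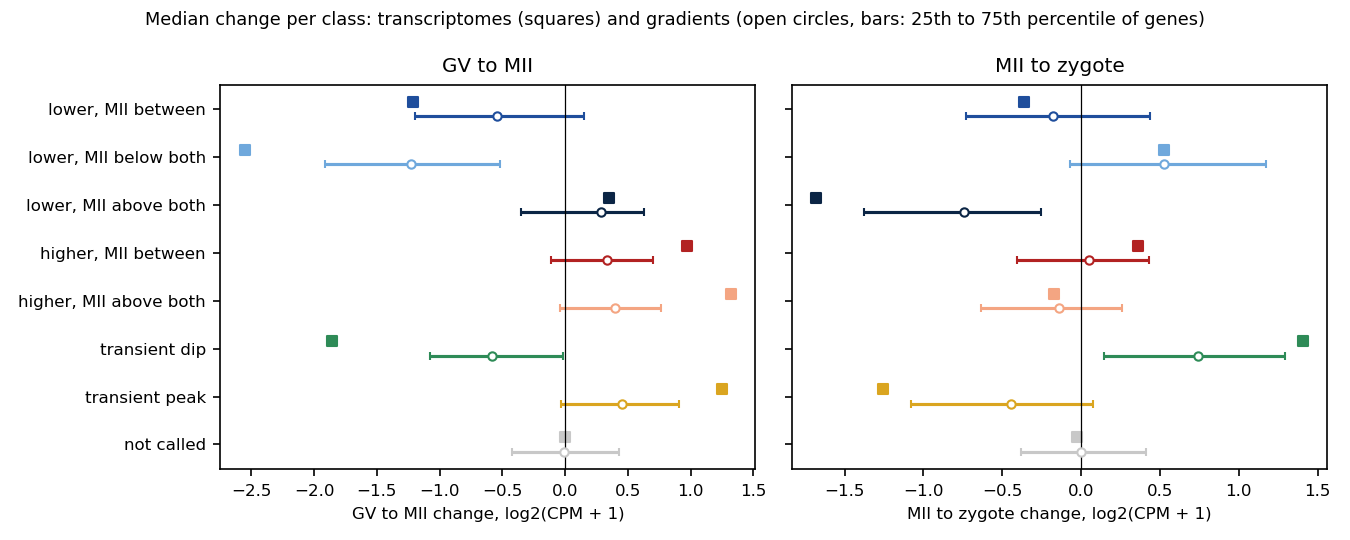
Median change of each class from GV to MII (left) and from MII to zygote (right) on the log2(CPM + 1) scale, in the transcriptomes (squares) and the gradients (open circles, bars from the 25th to the 75th percentile of genes). Falls with MII below both move from -2.55 to 0.53 in the transcriptomes and from -1.22 to 0.52 in the gradients.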

How the data were processed

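Poly(A) RNA of pools of 20 oocytes or embryos was sequenced after Smart-seq2 amplification, per the labels. Trim Galore 0.6.7, FastQC, HISAT2 2.2.1, featureCounts 2.0.1, edgeR and the build GRCm39 are named, per the submitters' processing notes; the strand setting is not given in the sources used here. The authors deposited CPM for 15854 gene symbols in 272 libraries; 38 columns summed to more than CPM values can, and those deposited columns are best read as a signal on the CPM scale, since none did so once 1 of each of 76 sets of identical symbols was kept (15771 symbols). The deposited transcriptome CPM were whole multiples of 1 read (100% of values within 0.05 of a read), so the count of reads behind each was recovered. The CPM total could include a normalization factor.

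The test was limma 3.58.1 (R 4.3.3) on log2(CPM + 1) over all 32 transcriptomes in 1 fit with a mean-variance trend, for genes at 1 CPM or more in at least 4 libraries, with Benjamini-Hochberg adjustment over all genes tested; edgeR 4.0.16 and DESeq2 1.42.0 were run on the recovered reads as alternatives. Gradients (24, fractions 2 to 10 averaged) were fitted in the same way, for genes at 1 CPM or more in at least 3. The 3′ ends were read from GENCODE M21 transcripts. Scripts were tested on simulated data. No library was a repeat of another: replicates correlated at 0.988 to 0.993 and differed beyond counting noise.

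The text names, at 10 CPM or more in the highest stage, the 10 largest falls and the 10 largest rises with MII between, the 8 largest falls with MII below both and a called rise, rises with MII above both and a called fall, 10 dips and 10 peaks by their smaller step, and members of 17 gene lists; symbols such as Gm or Rik numbers were counted and not named, and 2 genes that the rule names are not reported here. The members and lists were chosen with earlier results of these data known.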

Additional observations from a re-analysis of the deposited data

Results flagged for a closer look

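Among the 300 groups of 4 libraries behind the 100 genes named, 16 held 1 library whose gap to its nearest neighbour was above Dixon's 95% limit for a group of 4, as a share of the group's range. Chance flags about 1 in 20 groups, and 5.33% were flagged. The flags were not spread evenly over the libraries, and whether 1 library stands apart was not tested. Zygote library B was the lone one in 6 groups: Zp2 at 129 CPM, Zp3 at 265, ND5 at 516, Btg4 at 13424, Gnai2 at 67.2 and Tent5b at 49.1. Zygote library D stood apart for Dnmt1, at 377 CPM, and for Pik3ap1, at 43.7. In MII, library D was low for Fth1 (8.03 CPM) and Shmt1 (17.6), library C was low for Mrpl48 (23.3), Cnot1 (46.4) and Psme4 (242), and library A was high for Tent5b (25.9). In GV, library D was high for Dtx2 (73.6 CPM) and Nlrp5 (1135).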

How the results depend on the processing

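The counts of falls and rises moved with the scaling, the pseudocount and the minimum change. Rises called (888) came to 2064 with TMM scaling, 1999 with edgeR, 2416 with DESeq2, 2156 with quantile normalization, 3265 with median centring and 2304 with no minimum change; falls (3429) to 2169 with quantile normalization, 1775 with median centring and 2197 with a pseudocount of 5 CPM. Falls with MII between (1163) came to 685, 570 and 639 in those 3 settings and to 1788 with no minimum change, and falls with MII below both (2178) to 1432 with quantile normalization and 1158 with median centring. In the order TMM, edgeR, DESeq2, quantile normalization, median centring and no minimum change, rises with MII between (671) came to 1135, 1268, 1382, 1269, 1503 and 1203, rises with MII above both (197) to 898, 686, 965, 860, 1736 and 984, and peaks (205) to 401, 332, 426, 335, 502 and 790. With a pseudocount of 5 CPM rises with MII above both were 119, dips (221) 128 and peaks 111. Dips came to 345 with a pseudocount of 0.1 CPM, 447 with edgeR, 494 with DESeq2 and 374 with no minimum change. The cause was not tested. Leaving out each library in turn gave 3369 to 3489 falls, 848 to 929 rises, 210 to 270 dips and 147 to 239 peaks. The gradient change (819 genes) came to 2503 with the 9 gradients alone, 2464 with them and a replicate block, and 538 to 633 leaving out each gradient; the heavy fractions (382) came to 1416, 1309 and 209 to 296 (without GV A 209, GV B 236, GV C 212). The same fit over fractions 1 to 10, a wider readout than the heavy fractions, called 797. The cause was not tested. Replicate letters did not pair the samples (same-letter correlations of deviations -0.178 to 0.109, 1 of 12 pairs best with its own letter); with the replicate block on the 12 libraries alone, 3376 falls and 885 rises were called, the same numbers as in those libraries without the block. Of 2588 gene and alternative pairs 2526 kept direction and call, 57 lost the call, 5 (all Ccnb1) gained it and none reversed.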
